A study of Mus musculus with 19 samples.

Results

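The genes described here code for the subunits of ligand-gated glutamate and GABA receptor channels in mouse embryonic stem cells (ESC) and in neural progenitors (NeuP) derived from such cells. They were chosen by symbol alone, as the genes whose names start with Gria, Grik, Grid or Grin and a digit, or with Gabra, Gabrb, Gabrg, Gabrr, Gabrd, Gabre, Gabrp or Gabrq. The rule found 39 of the 24016 genes in the deposited RNA table, 20 with glutamate receptor names and 19 with GABA receptor names. Of these, 37 code for channel subunits. Grid2ip codes for delphilin, a postsynaptic protein that binds delta receptors, and Grin1os is an antisense transcript at the 3′ end of Grin1.

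Glutamate opens AMPA, kainate and NMDA receptors, which are tetramers that let cations into the cell and excite neurons. GABA opens pentameric chloride channels, most often built from alpha, beta and gamma subunits, which inhibit mature neurons and can depolarise immature ones. Neural progenitors and glia are also known to carry some of these subunits before any synapse exists, whereas ESC are not known for glutamatergic or GABAergic transmission. Polycomb repressive complex 1 (PRC1), to which the proteins Ring1B and Cbx7 belong, sits on CpG-rich promoters of many developmental genes in ESC.

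The series holds 19 samples. RNA-seq was available for 2 NeuP libraries with no hairpin, for 2 libraries of E14 ESC that carried a lentiviral hairpin against the nucleoporin Nup153 (shNup153 #2 and shNup153 #4, 1 library each), and for 1 library of E14 ESC that carried a non-target hairpin (shCtrl). The NeuP cells were made through embryoid bodies with Noggin and kept in FGF2 and EGF, and their ESC line is not given. ESC were grown on irradiated fibroblast feeders and selected with puromycin, so hairpin, selection, feeders and possibly line differ between NeuP and shCtrl ESC together with the cell type and cannot be told apart. Peak lists covered Ring1B ChIP in NeuP, in both knockdowns and in shCtrl ESC, Cbx7 ChIP in shCtrl ESC, Oct4 ChIP in shNup153 #2 and shCtrl ESC, and DamID of Nup153 and Oct4 in E14 ESC without a hairpin. DamID marks DNA that a methylase fused to the protein has touched. Each ChIP list came from 1 library, and each DamID list stood for 2 replicates.

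The RNA libraries held between 24.3 and 32.2 M fragments each. The targeted gene Nup153 was at 12.8 and 29.1 FPKM in NeuP, 20.9 and 17.4 FPKM in the hairpin libraries #2 and #4, and 39.4 FPKM in shCtrl ESC. Its knockdown difference on the log2(FPKM + 1) scale was -1.01 ± 0.55 (SE) with an adjusted p of 0.897 (limma). FPKM is the fragment count per kilobase of transcript and per M fragments, so levels of different genes can be compared on it. Markers went with the labels in most respects. All 7 pluripotency markers were lower in NeuP and 6 of 9 radial glia and progenitor markers were higher (limma, Benjamini-Hochberg, as described below). Of 10 neuron markers tested, 3 were higher and 1 was lower in NeuP. Of 4 astrocyte markers tested 2 were higher and 1 lower in NeuP. Summed astrocyte markers were 263 FPKM in NeuP replicate 1 and 31.9 FPKM in replicate 2, against 14.9 FPKM in shCtrl ESC. Nearly all of the shCtrl sum was Aldh1l1, the lower marker, at 6.53 and 5.16 FPKM in NeuP and 14.87 FPKM in shCtrl ESC. Gfap alone was at 173 and 0.563 FPKM in NeuP, against 0.073 FPKM in shCtrl ESC. Of 6 oligodendrocyte lineage markers tested 2 were higher and 1 lower in NeuP, with the myelin marker Mog at 0 in both NeuP libraries. Feeder fibroblast markers summed to 39.0 and 95.1 FPKM in NeuP and 5.83 FPKM in shCtrl ESC, with 3 of 7 higher and 1 lower.

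The promoters of 4 members are shown because the binding results below return to them. Gria2, Gria4 and Grik3 had PRC1 peaks in ESC within 2 kb of the start given in the RNA table but not over it, most of them downstream. In NeuP, Ring1B peaks covered the starts of Gria4 and Gabrg1, and for Gabrg1 this was the only peak within 2 kb in any list. The RefSeq promoter table (GRCm38.p6) held 27 of the 39 members. Each window runs 5′ to 3′ on the gene's own strand from 250 bases before the start to 50 bases after it, and capitals mark every CG dinucleotide, which reads the same on both strands. The windows are chr3:80802786-80803085 on the minus strand for Gria2, chr9:4796185-4796484 on the minus strand for Gria4, chr4:125490446-125490745 on the plus strand for Grik3, and chr5:70842568-70842867 on the minus strand for Gabrg1.
Gria2: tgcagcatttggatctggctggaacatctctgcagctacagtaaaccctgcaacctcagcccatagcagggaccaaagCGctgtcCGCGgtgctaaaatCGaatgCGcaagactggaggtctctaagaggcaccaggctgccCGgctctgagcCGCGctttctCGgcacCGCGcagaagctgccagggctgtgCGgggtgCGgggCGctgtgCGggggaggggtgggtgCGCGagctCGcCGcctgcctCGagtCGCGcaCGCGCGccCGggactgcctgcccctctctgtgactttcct
Gria4: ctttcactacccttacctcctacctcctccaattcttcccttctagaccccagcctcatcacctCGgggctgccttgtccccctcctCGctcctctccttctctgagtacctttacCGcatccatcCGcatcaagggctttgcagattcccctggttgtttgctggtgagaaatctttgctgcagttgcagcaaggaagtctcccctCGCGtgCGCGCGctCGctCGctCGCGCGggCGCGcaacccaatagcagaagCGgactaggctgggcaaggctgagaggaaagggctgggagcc
Grik3: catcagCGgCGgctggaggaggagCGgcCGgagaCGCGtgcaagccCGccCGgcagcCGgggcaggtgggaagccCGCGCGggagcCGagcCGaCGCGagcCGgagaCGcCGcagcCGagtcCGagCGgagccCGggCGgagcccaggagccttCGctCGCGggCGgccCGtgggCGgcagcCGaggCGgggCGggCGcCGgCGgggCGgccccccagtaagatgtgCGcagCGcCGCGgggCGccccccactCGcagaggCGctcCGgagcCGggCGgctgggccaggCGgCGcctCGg
Gabrg1: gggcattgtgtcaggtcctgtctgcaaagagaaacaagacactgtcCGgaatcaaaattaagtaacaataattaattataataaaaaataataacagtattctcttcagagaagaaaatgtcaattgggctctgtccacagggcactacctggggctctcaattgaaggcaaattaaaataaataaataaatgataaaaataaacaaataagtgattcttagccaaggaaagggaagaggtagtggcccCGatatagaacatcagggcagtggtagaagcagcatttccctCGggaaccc
The Grik3 window holds 50 CG, and 0.855% of the 32851 windows in that table hold at least as many. Gria2 has 26 (16.9% of windows hold at least as many) and Gria4 has 17 (31.4%), while Gabrg1 has 3 (76.7%), against a median of 7 over the whole table. With fewer than 80% of the members in the table, a count of CG over the whole gene set is void and none is given.

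RNA of the receptor genes was low in ESC and higher in NeuP, and 8 genes were above 5 FPKM in both NeuP libraries, against 1 in shCtrl ESC. Summed over the 39 genes it was 147 and 124 FPKM in NeuP, 25.9 and 25.6 FPKM in shNup153 #2 and #4, and 19.7 FPKM in shCtrl ESC. Glutamate receptor names gave 124 and 97.5 FPKM of the NeuP sums and 18.3 FPKM of the shCtrl sum. Names of GABA receptors gave 23.0 and 26.7 FPKM in NeuP, against 1.36 FPKM in shCtrl ESC. In bulk RNA, more cells with a transcript and more transcript per cell cannot be told apart.

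Only 17 of the 39 genes (43.6%) reached 1 FPKM in any library, against 57.3% of all genes. These were 14 glutamate receptor names and 3 of the 19 GABA receptor names. Of the 17, 10 reached 1 FPKM in NeuP only, 3 in ESC only (Grin1, Grin2c and Grid2ip) and 4 in both (Gria3, Grik3, Grik4 and Grik5). The other 22 stayed under 1 FPKM everywhere, with a highest value of 0.771 FPKM for Gabra5, and Gabra6, Gabrb1 and Grin1os were at 0 in every library.

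**Figure D1:**
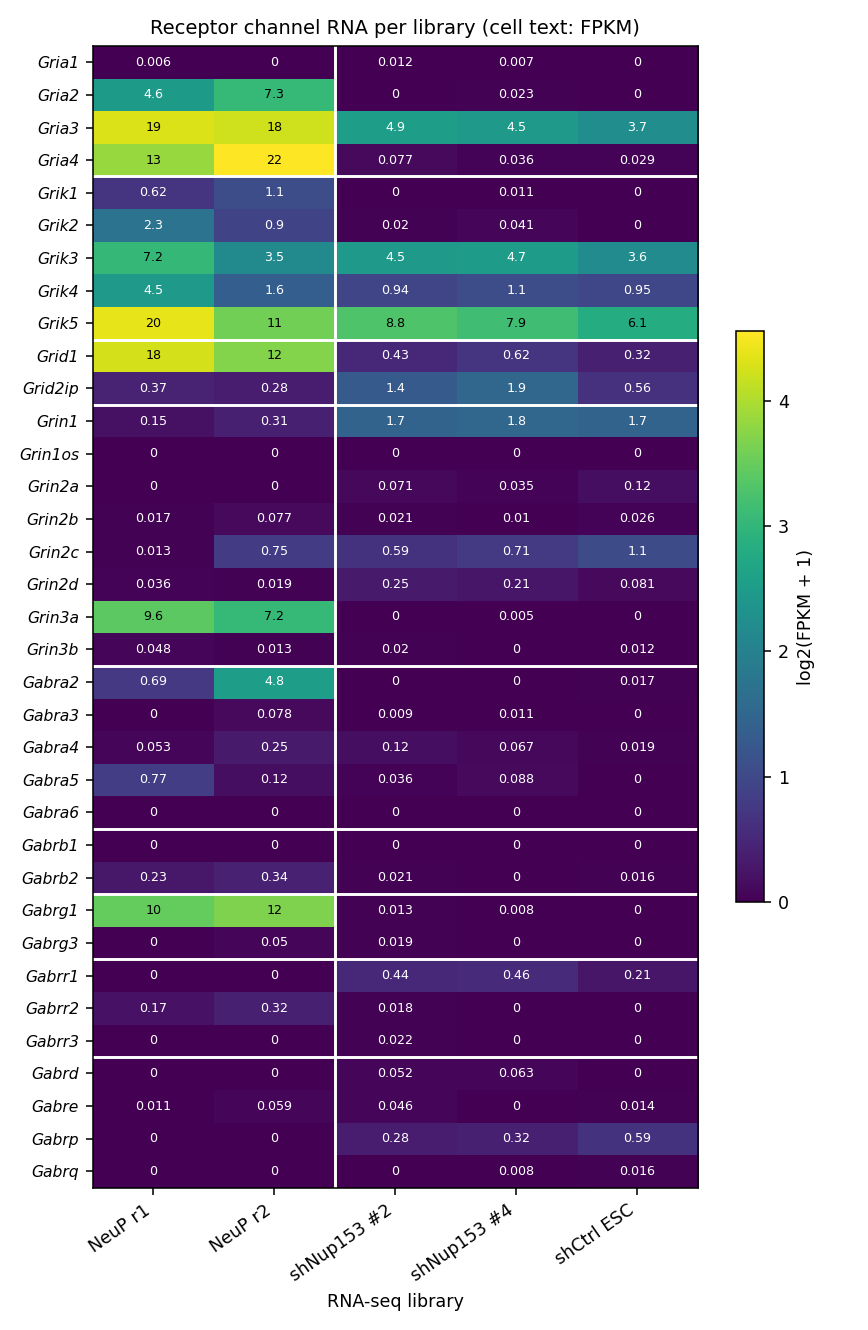
FPKM of 35 of the 39 receptor genes (rows, by subunit family) in the 5 RNA libraries (columns), with the value in each cell and colour for log2(FPKM + 1). The bright cells of the NeuP columns are Gria2 to Gria4, Grik3 to Grik5, Grid1, Grin3a and Gabrg1. Gabra2 is bright in NeuP replicate 2 only, and most other rows stay dark in all 5 libraries.

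The comparison of NeuP with shCtrl ESC asks which receptor genes come with the neural fate. Limma was fitted on log2(FPKM + 1) over all 13750 genes that reached 1 FPKM in at least 1 library, and genes were called at a Benjamini-Hochberg adjusted p under 0.05. Of the 17 receptor genes tested, 9 rose in NeuP and 1 fell, against 18.3% of all tested genes higher and 24.9% lower. The median log2 difference was 1.63 over those 17 and -0.26 over all tested genes. Of the 17, 10 entered the test only through their NeuP values, so this count and median are a description of the tested genes and not of the family. Without the filter, 8 of 39 were higher and 4 lower, against 7.86% of all 24016 genes higher and 14.6% lower, with a median of 0.05 over the members and 0.00 over all genes. The shCtrl group is 1 library and is assumed to vary like the others, and the labels do not say whether replicates came from separate cultures, so each p measures the spread between these samples only.

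AMPA receptors, the fast glutamate channels of excitatory synapses, were represented in NeuP by 3 of their 4 subunits. Gria4, a subunit with fast kinetics, was at 13.4 and 22.5 FPKM in NeuP, 0.077 and 0.036 FPKM in shNup153 #2 and #4, and 0.029 FPKM in shCtrl ESC. It showed the largest log2 difference of all receptor genes (4.16 ± 0.35, SE, adjusted p = 0.00480, limma with Benjamini-Hochberg). The linear ratio of 618 rests on 4 reads in the shCtrl library (Poisson 95% interval of that level 0.00791 to 0.0744 FPKM). Gria2 codes for the subunit that, once its RNA is edited, keeps calcium out of the channel. Its RNA was at 4.61 and 7.33 FPKM in NeuP, 0 and 0.023 FPKM in the hairpin libraries and 0 in shCtrl ESC (2.77 ± 0.29, adjusted p = 0.00717). Measured against a floor of 3 reads in the shCtrl library, Gria2 was at least 175-fold higher in NeuP. Gria3, unlike these, was already present in ESC. It stood at 18.8 and 17.7 FPKM in NeuP, 4.88 and 4.51 FPKM in the hairpin libraries and 3.72 FPKM in shCtrl ESC, a 4.90-fold difference (2.03 ± 0.18, adjusted p = 0.00506). For all 3 genes the NeuP values lay above every ESC value. Gria1, the subunit most used in hippocampal plasticity, was nearly silent, at 0.006 and 0 FPKM in NeuP, at most 0.012 FPKM in the knockdown and 0 in shCtrl ESC.

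Delta receptors, which do not open to glutamate in the usual way and instead bind secreted cerebellins across the synapse, included a clear rise in NeuP. Grid1 was at 18.2 and 12.1 FPKM in NeuP, 0.433 and 0.621 FPKM in the hairpin libraries and 0.324 FPKM in shCtrl ESC, a 46.8-fold difference (3.58 ± 0.30, adjusted p = 0.00468, limma). The NeuP values lay above every ESC value. Grid2ip went the other way in level, with 0.371 and 0.276 FPKM in NeuP, 1.45 and 1.85 FPKM in the hairpin libraries and 0.562 FPKM in shCtrl ESC. Its NeuP difference did not pass the test (-0.24 ± 0.17, adjusted p = 0.317).

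Kainate receptors combine the subunits of Grik1, Grik2 and Grik3, which form channels alone, with those of Grik4 and Grik5, which need such a partner. All 5 genes were tested and 1 passed. Grik1 was at 0.621 and 1.11 FPKM in NeuP, 0 and 0.011 FPKM in shNup153 #2 and #4, and 0 in shCtrl ESC (0.89 ± 0.21, adjusted p = 0.0411, limma). Without the filter on low values the adjusted p was 0.0881, and over all settings tried it ranged between 0.000996 and 0.165. Grik2 was at 2.31 and 0.899 FPKM in NeuP, 0.020 and 0.041 FPKM in the hairpin libraries and 0 in shCtrl ESC, which did not pass (1.33 ± 0.38, adjusted p = 0.0611). Both lay above every ESC value, but at low levels. Grik5 was the highest receptor transcript in shCtrl ESC. It was at 19.9 and 10.9 FPKM in NeuP, 8.80 and 7.95 FPKM in the hairpin libraries and 6.08 FPKM in shCtrl ESC (1.16 ± 0.41, adjusted p = 0.0929). Grik4 was at 4.49 and 1.58 FPKM in NeuP, 0.935 and 1.10 FPKM in the hairpin libraries and 0.955 FPKM in shCtrl ESC (0.94 ± 0.51, adjusted p = 0.209). For Grik3 the groups overlapped, with 7.18 and 3.53 FPKM in NeuP, 4.54 and 4.74 FPKM in the hairpin libraries and 3.60 FPKM in shCtrl ESC (0.40 ± 0.41, adjusted p = 0.467). Grik2 to Grik5 were all higher in NeuP replicate 1, by 2.57-fold for Grik2, 2.03-fold for Grik3, 2.84-fold for Grik4 and 1.82-fold for Grik5. Replicate 1 is also the library with the higher astrocyte sum, and the part of that in these differences was not tested.

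NMDA receptors need the subunit of Grin1 in every channel, joined by subunits of the Grin2 or Grin3 genes. The RNA did not rise as a set. Grin3a, whose subunit lowers calcium entry and is known from the developing brain, was at 9.63 and 7.25 FPKM in NeuP, 0 and 0.005 FPKM in shNup153 #2 and #4, and 0 in shCtrl ESC. It was at least 545-fold higher in NeuP against the floor of 3 reads (3.23 ± 0.22, adjusted p = 0.00341, limma). Grin1 fell, with 0.146 and 0.313 FPKM in NeuP, 1.74 and 1.84 FPKM in the hairpin libraries and 1.72 FPKM in shCtrl ESC (-1.15 ± 0.16, adjusted p = 0.0130). The NeuP libraries thus held much Grin3a RNA beside little Grin1 RNA. The labels call the libraries strand-specific, but whether counting used strand is not given, so reads of Grin1 and of its antisense partner cannot be told apart. Grin2c was at 0.013 and 0.752 FPKM in NeuP, 0.592 and 0.708 FPKM in the hairpin libraries and 1.08 FPKM in shCtrl ESC, and its NeuP replicates were far apart (-0.64 ± 0.38, adjusted p = 0.242). Grin2a and Grin2b, the main partners of Grin1 in forebrain, reached at most 0.123 and 0.077 FPKM in any library. The highest values were 0.250 FPKM for Grin2d and 0.048 FPKM for Grin3b.

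GABA receptor RNA came from few genes. Gabrg1, which codes for a gamma subunit, was at 10.2 and 11.7 FPKM in NeuP, 0.013 and 0.008 FPKM in shNup153 #2 and #4, and 0 in shCtrl ESC. It was at least 441-fold higher in NeuP against the floor of 3 reads (3.58 ± 0.17, adjusted p = 0.00240, limma), the smallest adjusted p of the receptor genes. Its NeuP replicates were close. Gabra2, an alpha subunit gene, was at 0.692 and 4.83 FPKM in NeuP, 0 in both hairpin libraries and 0.017 FPKM in shCtrl ESC. The NeuP replicates differed 6.98-fold, and the difference to shCtrl ESC did not pass (1.63 ± 0.81, adjusted p = 0.182).

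Most GABA receptor genes, 16 of 19, stayed under 1 FPKM in every library. Gabra5, the alpha subunit of many extrasynaptic hippocampal receptors, was at 0.771 and 0.124 FPKM in NeuP, 0.036 and 0.088 FPKM in the hairpin libraries and 0 in shCtrl ESC. Gabrp and Gabrr1 ran the other way, with RNA in ESC and 0 in NeuP. Gabrp, a subunit known mainly outside the brain, was at 0 in both NeuP libraries, 0.285 and 0.324 FPKM in the hairpin libraries and 0.591 FPKM in shCtrl ESC. Gabrr1, a rho subunit known from retina, was at 0 in NeuP, 0.444 and 0.456 FPKM in the hairpin libraries and 0.211 FPKM in shCtrl ESC. Among the rest, Gabrb2 had up to 0.339, Gabrr2 up to 0.319 and Gabra4 up to 0.250 FPKM, and Gabra3, Gabrd, Gabre, Gabrg3, Gabrq and Gabrr3 had at most 0.078 FPKM.

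**Figure D2:**
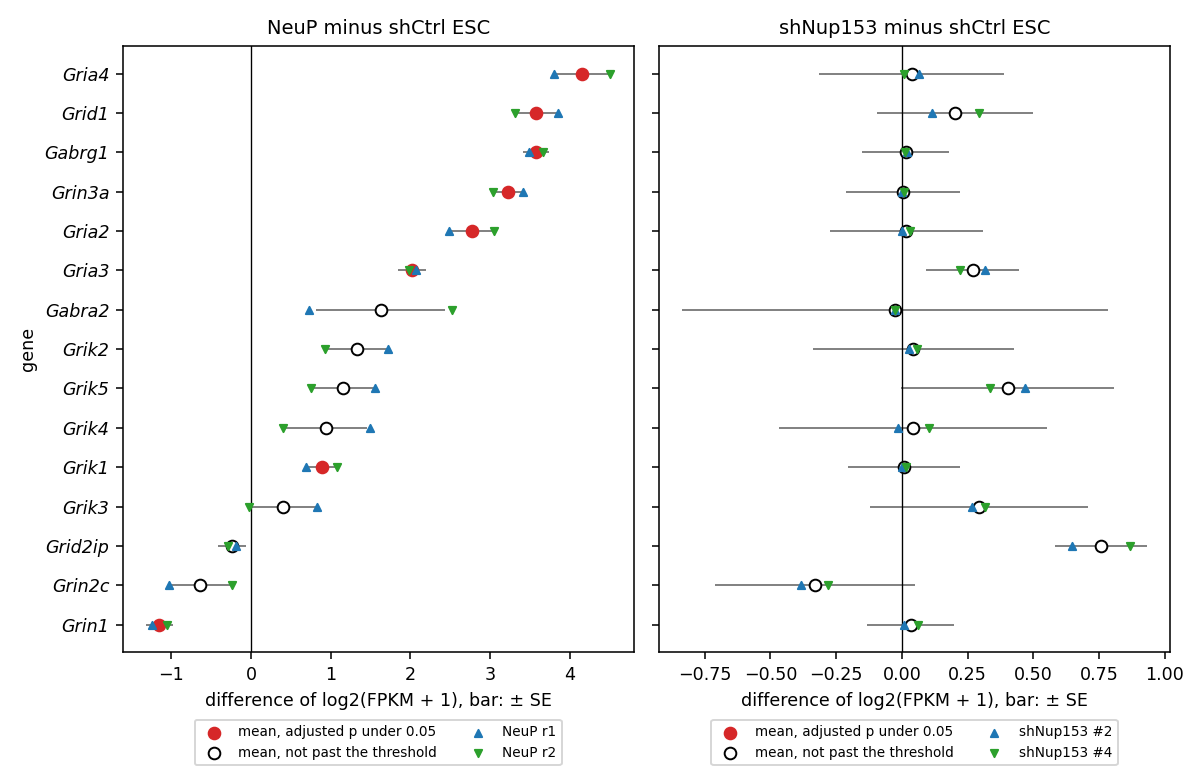
Difference of log2(FPKM + 1) to the shCtrl ESC library for 15 of the 17 receptor genes tested, for NeuP (left) and shNup153 ESC (right), on separate scales. Circles are group means with limma's SE, filled where the adjusted p is under 0.05, and triangles are single libraries; 7 genes are filled above 0 and Grin1 below 0 in the left panel, and no circle is filled in the right one.

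The NeuP calls changed with the libraries in the fit. Without shNup153 #2, and likewise without shNup153 #4, 3 of the 17 rose, Gabrg1 and Grin3a among them, against 2.32% and 2.31% of all tested genes. The log2 differences were the same in these fits, since the hairpin libraries bear only on the spread. Calls that ended there, with adjusted p given without shNup153 #2 (limma), were those of Grid1 (0.0648), Gria4 (0.0682), Grin1 (0.0722), Gria3 (0.0771), Gria2 (0.0806) and Grik1 (0.165), among others. Without NeuP replicate 1 the number higher was 13, against 34.1% of all tested genes, and without NeuP replicate 2 it was 14, against 33.6%. The members differed between NeuP replicates by a median of 0.57 on the log2 scale, against 0.41 over all tested genes, and 10 of 17 were higher in replicate 1 and 7 in replicate 2. Between the hairpins the medians were 0.05 for the members and 0.09 for all tested genes.

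Most mouse GABA receptor genes lie in clusters of neighbouring alpha, beta and gamma genes, and within a cluster the RNA levels were unequal. In mm9 coordinates, the chromosome 5 cluster spans 1386 kb and holds Gabrg1 (71142286 to 71233856), Gabra2 (71352296 to 71487088), Gabra4 (71960973 to 72049547) and Gabrb1 (72091255 to 72528483). Gabrg1 had a NeuP mean of 10.96 ± 1.07 FPKM (SD, n = 2), whereas Gabrb1 at the other end had 0 and Gabra4 0.152 ± 0.139 FPKM. Gabra2, next to Gabrg1, was the other gene of this cluster to reach 1 FPKM. The chromosome X cluster of 585 kb (Gabre, Gabra3 and Gabrq) had no gene at 1 FPKM in any library.

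**Figure D3:**
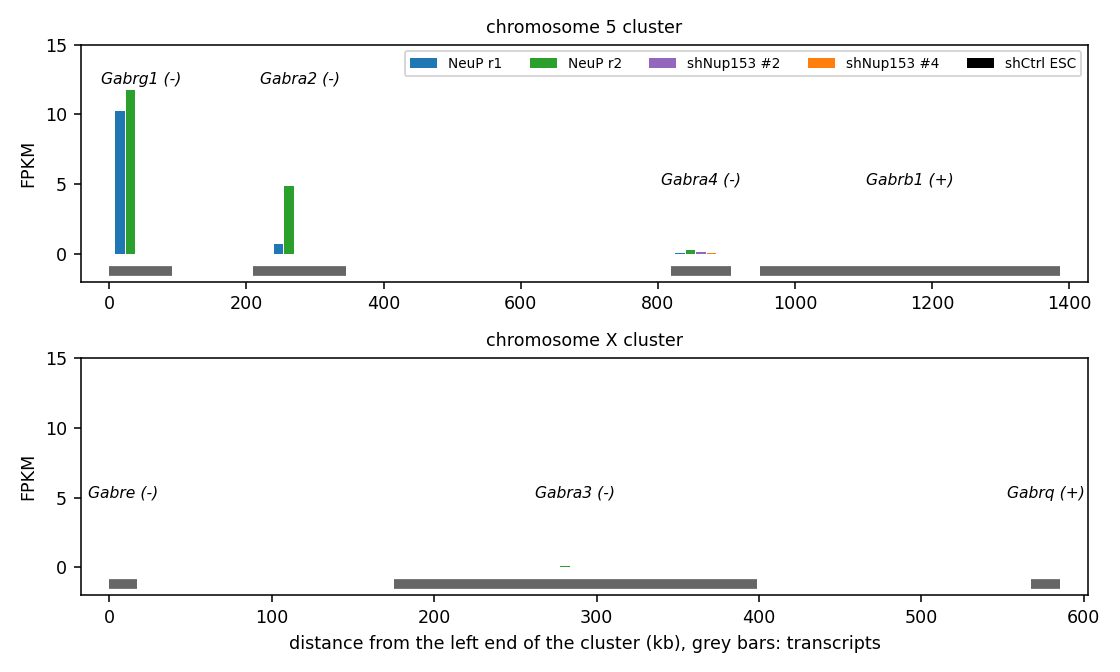
FPKM of GABA receptor genes in 2 clusters, drawn at each gene's place along its cluster (kb from the left end, grey bars for transcripts, strand in brackets), with 1 bar per RNA library. Tall bars stand at Gabrg1 in both NeuP libraries. At Gabra2 the tall bar is that of NeuP replicate 2 (4.83 FPKM, against 0.692 FPKM in replicate 1), and the chromosome X cluster is flat.

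Genes that work with these channels were examined as a list of 69, of which 45 were tested. In NeuP 24 rose and 4 fell, against 18.3% of all tested genes higher and 24.9% lower. The list was drawn up with earlier results of these data known, so its direction is no independent evidence. Of the genes for glutamate and GABA uptake and breakdown, 6 of 10 tested were higher. The glial glutamate transporter gene Slc1a3 was at 273 and 321 FPKM in NeuP, against 2.41 FPKM in shCtrl ESC, a log2 difference of 6.45. Abat, which breaks down GABA, rose by 5.76. Slc1a1, a glutamate transporter gene, and Slc17a7, which loads glutamate into vesicles, fell (-3.31 and -1.11). Genes that make or load GABA did not follow, with Gad1 at 4.50 and 0.911 FPKM in NeuP and 0.761 FPKM in shCtrl ESC (not past the threshold) and Gad2 and Slc32a1 under 0.3 FPKM throughout.

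Auxiliary subunits, which set the traffic and gating of AMPA and kainate channels or tether them, had 8 of 15 tested genes higher and 2 lower, beside the same 18.3% and 24.9% of all tested genes. The kainate partner gene Neto2 rose by 3.91, the AMPA partner gene Cacng4 by 3.87 and Neto1 by 2.98. Nptx2 and Cbln1, which code for secreted proteins that bind AMPA and delta receptors, fell (-2.80 and -1.96). Of 15 tested scaffold genes 7 were higher and 0 lower, among them Nlgn1 (3.33), a postsynaptic adhesion protein, and Dlg4 (3.15), the scaffold of excitatory synapses. Of 4 metabotropic receptor genes tested, Grm3 (3.79) and Gabbr1 (1.02) rose. Glrb (2.58), the beta subunit of glycine receptors, was the only glycine receptor gene tested of 5.

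Knockdown of Nup153 asks whether the pore protein bears on these genes in ESC. In the same limma fit 0 of 13750 genes (0.0%) were called after Benjamini-Hochberg adjustment, and 814 (5.92%) had an unadjusted p under 0.05. Among the 17 receptor genes 0 were called and 1, Grid2ip, had an unadjusted p under 0.05 (0.76 ± 0.17, adjusted p = 0.825, limma). Both hairpin libraries stood above shCtrl for 10 of the 17 (58.8%), against 55.0% of all tested genes, and below it for 2 (11.8%), against 29.5%. The median log2 difference was 0.04 over these genes and 0.08 over all. The knockdown and NeuP comparisons share the shCtrl library, so an error in it enters both. They also share a spread pooled over the NeuP and hairpin replicates, so the knockdown p-values do not measure the hairpins' spread alone.

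The receptor genes with RNA in ESC show the size of these differences. Grik5 was at 8.80 and 7.95 FPKM with hairpins #2 and #4, against 6.08 FPKM in shCtrl ESC (0.40 ± 0.41, adjusted p = 1.00, limma). For Gria3, 4.88 and 4.51 FPKM stood against 3.72 FPKM (0.27 ± 0.18, adjusted p = 0.951). Grik3 differed by 0.29 ± 0.41. Each of these 3 lay above shCtrl in both hairpin libraries by less than the test could call. The SE of this fit also carries the spread between the NeuP replicates. With the ESC libraries alone the log2 differences were the same, with an SE of 0.12 for Grik5, 0.12 for Gria3 and 0.12 for Grik3. Grin2c lay below it, with 0.592 and 0.708 FPKM against 1.08 FPKM (-0.33 ± 0.38), and Grin1 differed by 0.03 ± 0.16. Among genes under 1 FPKM, Gabrr1 stood at 0.444 and 0.456 FPKM in the knockdown and 0.211 FPKM in shCtrl ESC, and Gabrp at 0.285 and 0.324 FPKM against 0.591 FPKM. Of the 45 partner genes tested, 0 were called, against 0.0% of all 13750 tested genes. An unadjusted p under 0.05 (limma) was found for 2 of the 45, against 5.92% of all tested genes.

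PRC1 peaks at the transcript starts were common in ESC. A gene was counted when the window from 2 kb before to 2 kb after its start shared at least 1 base with a peak, in mm9. Cbx7 in shCtrl ESC had a peak at 18 of the 39 (46.2%), against 13.2% of all 24016 genes. Among them were Gria2, Gria3, Gria4, Grik2, Grik3, Grid1, Grin1os, Grin2a, Grin2b, Grin2c, Grin3b, Gabra2, Gabra4, Gabra5, Gabrb1 and Gabrb2. The peaks of Grin1os lie beside the 3′ end of Grin1, whose own start had none. Ring1B with shNup153 #2 had a peak at 19 members (48.7%), against 24.0% of all genes. Of these 19, 16 also had Cbx7, which is 84.2% of the Ring1B genes and 88.9% of the Cbx7 genes, against 41.6% and 75.4% over all genes.

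The other Ring1B lists from ESC held few members. With shNup153 #4 there were 2, Grin2a among them (5.13%, against 9.24% of all genes), and in shCtrl ESC 2, Grid1 and Grik3 (5.13%, against 8.10%). All 4 genes of these lists were also in the list of hairpin #2. The Ring1B libraries had 30.8 M tags for shNup153 #2, 9.95 M for shNup153 #4 and 4.99 M for shCtrl, and depth and hairpin cannot be told apart between these lists. Over all ESC lists of Ring1B and Cbx7, 21 members had a peak (53.8%, against 31.1% of all genes), 15 with glutamate and 6 with GABA receptor names.

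The chromosome 5 cluster shows how the marks fell within a row of genes. Gabra2, Gabra4 and Gabrb1 had Cbx7 and Ring1B (shNup153 #2) within 2 kb of their starts in ESC, and Gabrg1 had neither. Gabra2 carried a Cbx7 peak from 755 bases before to 1443 bases after its start. The widest Cbx7 peak at a member start was on Grid1, with 3155 bases, where Ring1B (shNup153 #2) covered 3203 bases. At Gria2 and Gria4, whose windows are printed above, Cbx7 lay from 240 to 1986 and from 143 to 643 bases downstream of the start, and at Grik3 from 135 to 1254.

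**Figure D4:**
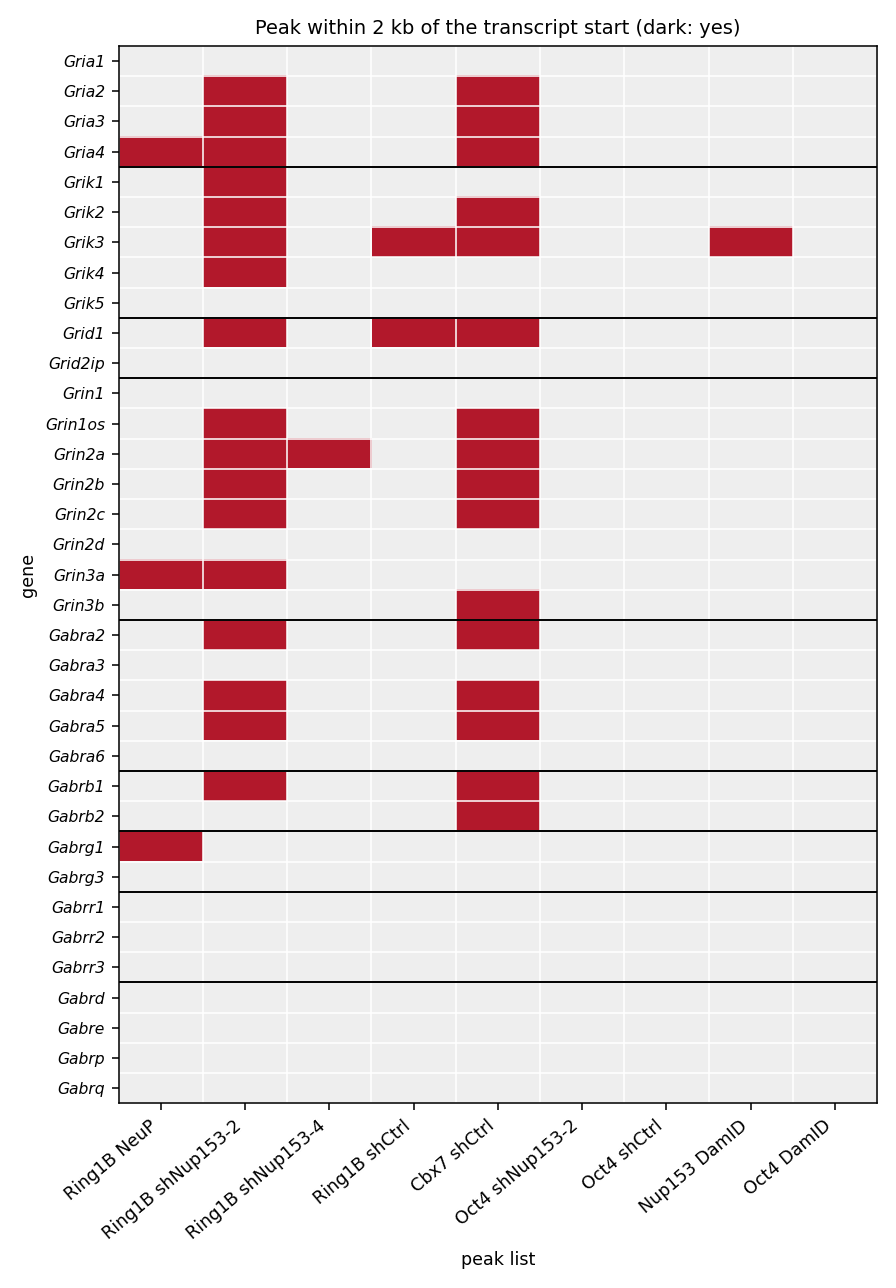
Presence (dark) or absence (pale) of a peak within 2 kb of the transcript start for 35 of the 39 receptor genes (rows) in the 9 peak lists (columns). Dark cells fill the columns of Ring1B with shNup153 #2 (17 of the genes drawn) and of Cbx7 (16), 3 genes are dark for Ring1B in NeuP, and the Oct4 columns are empty.

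In NeuP, Ring1B had a peak at 4 receptor gene starts (10.3%), against 10.4% of all genes. Among them were Gria4, Grin3a and Gabrg1, and all 4 are among the 9 genes whose RNA rose in NeuP. Thus 4 of 9 risen members had the peak, against 23.9% of the 2516 risen genes of the whole table. Of the other 30 members, 22 of them untested, 0 had it. Over all genes the peak was at 8.13% of fallen genes, 15.2% of tested genes not called and 4.32% of untested genes. These member counts are small, and a link between peak and rise was not tested. The peak of Gabrg1 ran from 1224 bases before to 30 bases after the start. The Gria4 peak ran from 69 before to 586 after, and that of Grin3a from 169 before to 331 after. Gria4 and Grin3a also had Ring1B with shNup153 #2 in ESC. Gabrg1 had no PRC1 peak in any ESC list. The NeuP list was called against an IgG library from ESC, so regions that differ in copy number or accessibility between the cells can enter it, and their part was not tested.

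RNA in NeuP can be set beside Cbx7 within 2 kb of the start in ESC. Of the 18 with Cbx7, 9 were tested and 5 rose (55.6%), against 38.0% of all tested genes with Cbx7. Of the 21 without it, 8 were tested, 4 rose and 1 fell, against 15.4% of all tested genes without Cbx7 that rose. Gabrg1 was among the risen genes without any PRC1 peak in that window in ESC. The 9 untested genes with Cbx7, such as Grin2a and Grin2b, stayed under 1 FPKM in NeuP as well as in ESC.

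**Figure D5:**
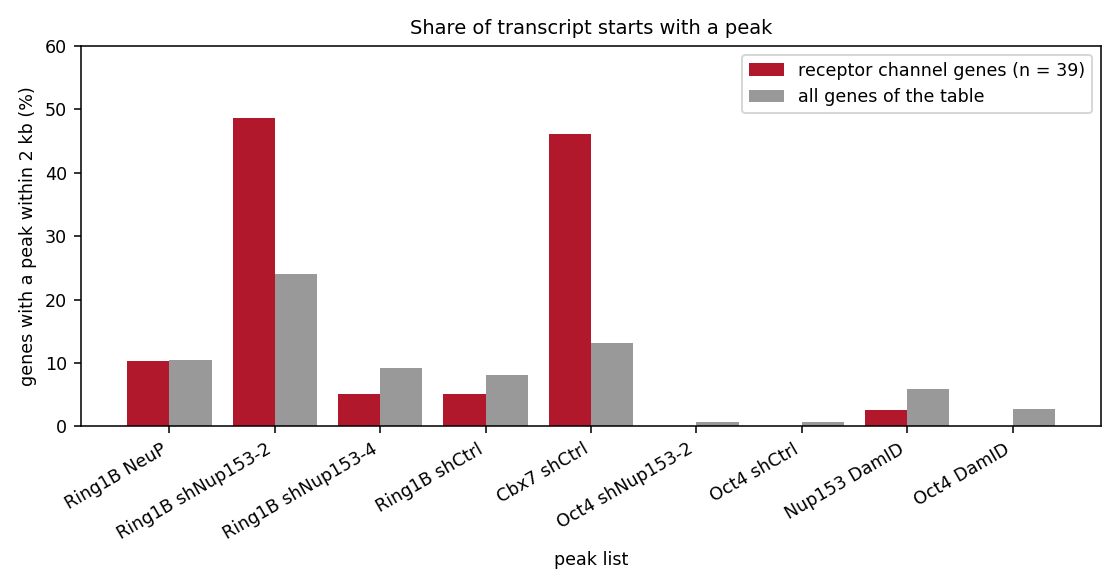
Percent of transcript starts with a peak within 2 kb, for the 39 receptor genes (red) and all 24016 genes of the table (grey), in each of the 9 peak lists. The red bars are above the grey ones for Ring1B with shNup153 #2 (48.7% against 24.0%) and Cbx7 (46.2% against 13.2%), level for Ring1B in NeuP and lower elsewhere.

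Nup153 and Oct4 were rarely found at receptor gene starts. Nup153 DamID had a peak at 1 member, Grik3 (2.56%, against 5.91% of all genes), which ran from 3737 to 1237 bases before the start. Oct4 DamID had 0 members, against 2.80% of all genes. Oct4 ChIP had 0 members with shNup153 #2 and 0 in shCtrl ESC, against 0.712% and 0.733% of all genes. The genes with no peak within 2 kb in any of the 9 lists included Gria1, Grik5, Grin1 and all 3 rho subunit genes.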

How the data were processed

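RNA values and peak lists were deposited by the authors. The RNA table holds FPKM per transcript, deposited by the authors with 1 transcript per gene, in mm9. Per the submitters' processing notes, CASAVA 1.8.2, STAR 2.2.0c, Bowtie2 2.1.0, HOMER 4.6 and edgeR were used. Per the file headers, ChIP peaks came from HOMER, with factor settings for Oct4 and histone settings for both PRC1 proteins, against IgG from ESC. The DamID lists have no header, and how replicates and the GFP control were combined is not stated. No peak list holds a height.

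Limma 3.58.1 in R 4.3.3 (trend, two-sided) was fitted on log2(FPKM + 1) over 13750 genes, with all 5 libraries in 3 groups and 2 residual degrees of freedom, and p-values were Benjamini-Hochberg adjusted. Fold changes on this scale understate changes of low genes. The steps between low FPKM values matched whole reads (100% within 0.1 of a read) and gave each library's depth. Floors of 3 reads and Poisson 95% intervals cover counting error only. Peaks were placed with Python 3.11.15, numpy 2.4.6 and pandas 2.3.3, and figures drawn with matplotlib 3.10.9. The scripts were tested on simulated data. Every member that reached 1 FPKM, members with promoter peaks, and the 3 largest called changes per class and direction of partner genes are named, and Gad1, Gad2 and Slc32a1 were named after their values were seen. The members, lists and tests were chosen with earlier results of these data known. Some members and partner genes are not reported here.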

Additional observations from a re-analysis of the deposited data

How the results depend on the processing

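Among the 17 tested members the log2 differences between NeuP and shCtrl ESC kept direction and side of the threshold in 133 recomputed values, with 15 newly past it, 16 no longer past it and 2 reversed. In the knockdown 162 kept them and 4 reversed. A planned voom fit on recovered reads was tried once and is not reported, since the deposited values are FPKM and a count test is not meant for them.

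Counts of members higher in NeuP ranged from 3 to 14 when each replicate was left out in turn (9 in the main fit), and counts lower from 0 to 2 (1 in the main fit), with 0 in the knockdown throughout. Fitting without a filter gave 4 lower in NeuP (Gabrp, Gabrr1, Grin1 and Grin2a) and 1 in the knockdown, Gabrr1, all but Grin1 being under 1 FPKM everywhere. Over all genes, leaving out shNup153 #2 gave 319 higher and 1508 lower, leaving out NeuP replicate 1 gave 4692 and 5927, and the no-filter knockdown fit gave 55 higher and 175 lower. Quantile normalization moved the median of all genes from -0.26 to -0.06 in NeuP and gave 2900 higher and 2865 lower, against 2516 and 3420.

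Differences that reversed were small. In NeuP these were Grik3 without NeuP replicate 1 (-0.023, range over left-out replicates -0.023 to 0.83) and Grid2ip after quantile normalization (0.23). In the knockdown they were Grin1 (-0.19 after quantile normalization), Grik4 (-0.17 after quantile normalization, -0.015 without shNup153 #4, range over left-out replicates -0.015 to 0.10) and Gria4 (-0.0085 after quantile normalization). The cause was not tested.

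With a window of 1 kb the Ring1B lists of shNup153 #4 and shCtrl held 1 member each and Nup153 DamID 0. With peak centres inside the window Nup153 DamID held 0, and at 5 kb Oct4 DamID held 1 (Gria3). Keeping peaks wider than their list's median, an alternative chosen after seeing the data, left 1 for Ring1B shNup153 #4, 0 for Ring1B shCtrl and 0 for Nup153 DamID. Counts for Cbx7, for Ring1B with shNup153 #2 and for Ring1B in NeuP stayed within 1.5 times under every window and width tried.

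No paired analysis was possible because the DamID replicates were deposited as 1 combined list each and the RNA groups share only the number 2. Depth limits members at 0 reads to statements about the floor of 3 reads, and the Ring1B lists differ in depth.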

Other observations

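Receptor genes are long, and their bodies held fewer peaks per Mb than gene bodies at large in each of the 9 lists. The median span from start to end was 102 kb, against 13.7 kb over all genes. Ring1B in NeuP had 38 peaks inside member bodies, or 4.34 per Mb, against 7.90 per Mb over all genes. Cbx7 had 5.49 per Mb, against 7.70. Nup153 DamID had 3 peaks in member bodies (Grik3, Grik4 and Grin2d), or 0.343 per Mb against 2.62. Counted per gene the picture differed. Cbx7 had a body peak in 27 of the 39 members, against 20.4% of all genes. Ring1B with shNup153 #2 had one in 25 members, against 26.9%, and Ring1B in NeuP in 11, against 18.0%. Nup153 DamID had one in 3 members, against 8.79%. These shares were not matched for gene length. The Oct4 lists had peaks in the bodies of Grik3 (DamID, ChIP with shNup153 #2 and ChIP in shCtrl ESC), Grik2, Grik4 and Gria3, among others. These are counts per list with no test.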
